A study of Bos taurus with 4 samples.

Results

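The genes described here encode the mTOR, PI3K and AMPK signalling pathways, and were measured in bovine early blastocysts (Bos taurus) from oocytes of Holstein heifers at a donor age of 14 or 11 months. They are 46 genes taken by name: the kinase mTOR and its partners, the TSC, RHEB and Rag switches upstream of it, the S6 kinases, the PI3K and AKT kinases with their adaptors, the energy sensor AMPK, and some of the proteins these kinases restrain. Of the 46, 43 had a probe on the array, 5 of them under an older symbol, and 40 were bright enough against the array's negative controls to be tested, among 13519 such genes with a symbol. A gene was read from its probe with the highest mean signal of both channels.

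Both groups shared 1 protocol. Each heifer received progesterone and repeated injections of follicle-stimulating hormone before oocyte collection, the oocytes were matured, fertilized with semen of adult bulls and cultured in vitro, and embryos were taken at 168 hours after fertilization and pooled. Each of the 4 two-colour arrays held the 14-month pool and the 11-month pool of 1 heifer, so that the ages are paired within an animal and n = 4 heifers. The 14-month pool carried Cy3 in heifers 1 and 2 and Cy5 in heifers 3 and 4. Donor age goes with the time of collection, and these cannot be told apart. How many embryos went into each pool is not known here.

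mTOR is a kinase that sets cell growth by nutrient supply. It works in mTORC1, with RPTOR, and in mTORC2, with RICTOR. Growth factor receptors reach it through adaptor proteins, the lipid kinase PI3K and AKT, which inhibits the TSC complex and so frees the small GTPase RHEB to switch mTORC1 on. Amino acids act through the Rag GTPases, which are anchored to the lysosome by the Ragulator complex and bring mTORC1 to RHEB. AMPK is switched on by LKB1 (STK11) when ATP is low, and holds mTORC1 back through TSC2 and RPTOR. In mammalian embryos mTOR activity is known to be needed for growth of the blastocyst, and its inhibition can pause mouse blastocysts.

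No member differed between the donor ages past an adjusted p of 0.05 in limma. The values below are log2 ratios, 14 over 11 months, and a value above 0 means more signal at 14 months; the deposited ratios run 11 over 14, and their sign was turned. Among the 40 tested members, PRKAA1, PIK3CA and RRAGC were lower at 14 months at an unadjusted p under 0.05 (3 of 40, or 7.5%, against 5.13% of all tested genes), and LAMTOR2 and TSC2 were higher (2 of 40, or 5%, against 4.21%). They encode the catalytic subunit of AMPK, the catalytic subunit of PI3K, a Rag GTPase, a Ragulator subunit and the active subunit of the TSC complex. Over all 36447 tested probes 0% passed the adjusted threshold, with a lowest adjusted p of 0.328, and 9.2% had an unadjusted p under 0.05. The lowest adjusted p of a member was 0.426. These shares lie near the background. Without heifer 2 none of the 5 genes kept an unadjusted p under 0.05, without heifer 1 PRKAA1 and RRAGC did, without heifer 3 TSC2, LAMTOR2 and PIK3CA did, and without heifer 4 PRKAA1, LAMTOR2 and PIK3CA did.

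The ratios of the 40 members spanned -0.60 to 0.82, with a median of 0.03, against a median of -0.02 over all tested genes. Their mean was above 0 in 23 genes and below 0 in 17. With the sign set aside, the median size of the mean ratio was 0.20 in the members and 0.12 in all tested genes. The members were chosen with results known, and this difference was not tested. The median SD between heifers was 0.30 in the members and 0.27 in all tested genes. The 95% confidence interval of a member's ratio reached a median of 0.33 to each side. It lay wholly within a change of 1.5-fold in either direction in 23 of the 40, or 57.5%, against 78.1% of all tested genes. In a pool, fewer cells of a type and less RNA per cell cannot be told apart.

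**Figure D1:**
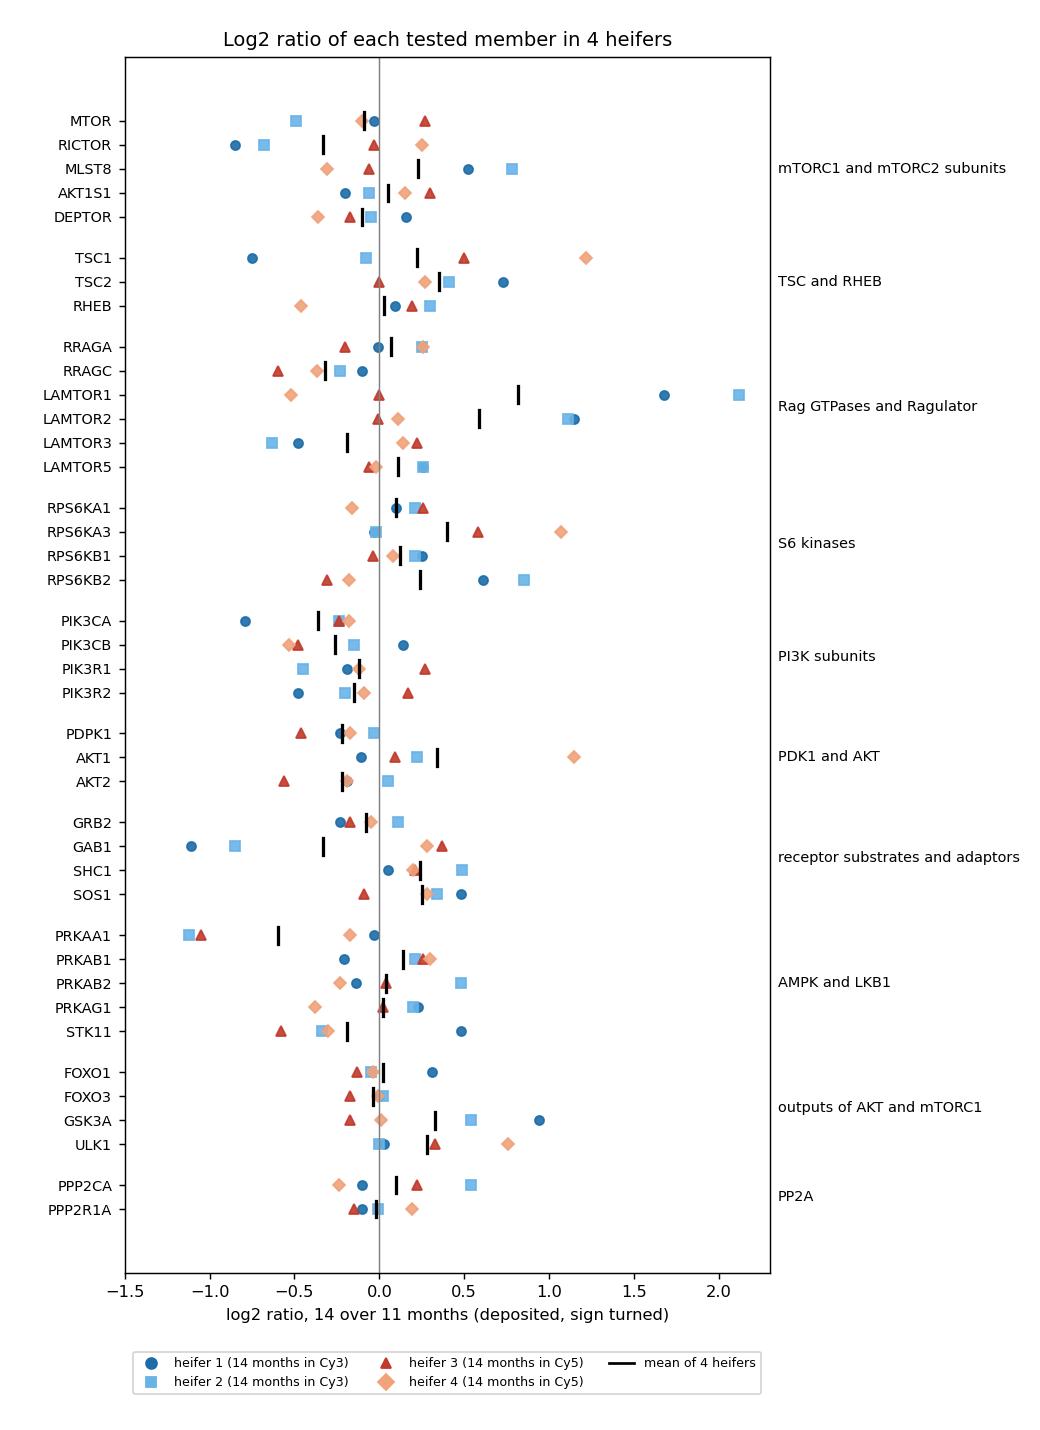
Log2 ratio of 14 over 11 months (horizontal axis) of the 40 tested members, ordered by role, with 1 point per heifer and a black bar for the mean of 4 heifers. Most means lie within 0.4 of 0, and points of heifers 1 and 2 (14-month pool in Cy3) often lie together and apart from those of heifers 3 and 4 (14-month pool in Cy5), as in LAMTOR1, GAB1 and RICTOR.

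The subunits of the mTOR complexes gave no call. MTOR, the kinase itself, had ratios of -0.03, -0.49, 0.27 and -0.10 in heifers 1 to 4, or -0.09 ± 0.31 (SD, n = 4). Heifers 1, 2 and 4 were thus lower at 14 months and heifer 3 higher, and the levels of the 2 ages overlapped. RICTOR, the subunit that defines mTORC2, was at -0.33 ± 0.52, with -0.85 and -0.68 in heifers 1 and 2 and -0.03 and 0.25 in heifers 3 and 4. The other tested RICTOR probes were at 0.06 ± 0.19 and -0.22 ± 0.26. In heifers 1 and 2 they were at -0.04 and 0.08, and at -0.05 and -0.08, so that the low values there were seen with the brightest probe only. MLST8, a subunit of both complexes, was at 0.23 ± 0.51 and went the other way from the brightest RICTOR probe. It was at 0.52 and 0.78 in heifers 1 and 2 and at -0.06 and -0.31 in heifers 3 and 4. The inhibitory subunits AKT1S1, also called PRAS40, and DEPTOR were at 0.05 ± 0.22 and -0.10 ± 0.22. The probe of RPTOR, the scaffold of mTORC1, was not above the negative controls in any pool, and no ratio is given.

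The TSC complex switches RHEB off, and RHEB activates mTORC1. TSC2, the GTPase-activating subunit, had log2 scanner levels of 8.30, 7.98, 8.05 and 8.34 in the 14-month pools of heifers 1 to 4, against 7.59, 7.52, 8.06 and 8.10 in the 11-month pools. The levels of the 2 ages overlapped, and the gap was wide in heifers 1 and 2 and near 0 in heifer 3. Its deposited ratios were 0.73, 0.41, 0.00 and 0.27, a mean of 0.35 ± 0.30 (SD, n = 4) or 1.27-fold higher at 14 months. In limma the unadjusted p was 0.0403 and the adjusted p 0.517. Its partner TSC1 was at 0.22 ± 0.84, with -0.75 and -0.08 in heifers 1 and 2 and 0.50 and 1.22 in heifers 3 and 4. This was the widest spread of any member but LAMTOR1, from a dim probe that was above the negative controls on 3 arrays at 14 months and 2 at 11 months. RHEB, read well above the controls in every pool, was at 0.03 ± 0.34, with a 95% interval of -0.31 to 0.38.

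Among the Rag GTPases and the Ragulator, members differed in sign. RRAGC, a Rag that pairs with RRAGA or RRAGB, had log2 levels of 8.31, 7.80, 7.70 and 7.78 at 14 months, against 8.35, 7.93, 8.27 and 8.03 at 11 months. All 4 heifers were lower at 14 months, while the 2 sets of levels overlapped across animals. The ratios of -0.10, -0.23, -0.60 and -0.37 gave -0.32 ± 0.21 (SD, n = 4), or 1.25-fold lower at 14 months. In limma the unadjusted p was 0.0359 and the adjusted p 0.499. With each of the 4 ways of computing ratios from the scanner files, the unadjusted p of RRAGC was 0.0612 to 0.242 in limma, past the threshold in none. Its partner RRAGA was at 0.07 ± 0.22.

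LAMTOR2, a roadblock-domain subunit of the Ragulator, had log2 levels of 9.63, 9.79, 9.31 and 9.81 at 14 months, against 8.48, 8.65, 9.38 and 9.72 at 11 months. The 11-month pools of heifers 1 and 2 stood below all the others, and heifers 3 and 4 had nearly the same level at both ages. The ratios were 1.15, 1.11, -0.01 and 0.11, a mean of 0.59 ± 0.62 (SD, n = 4) or 1.5-fold higher at 14 months. In limma the unadjusted p was 0.023 and the adjusted p 0.456. LAMTOR1, the lipid-anchored subunit that holds the complex on the lysosome, had the highest mean and the widest spread of the members. Its levels were 11.02, 11.23, 10.40 and 10.62 at 14 months, against 9.32, 9.11, 10.49 and 11.12 at 11 months. Ratios of 1.68, 2.12, 0.00 and -0.52 gave 0.82 ± 1.28 (SD, n = 4), with an unadjusted p of 0.0632 and an adjusted p of 0.577 in limma. In a limma fit with a dye term for each probe, LAMTOR1 and LAMTOR2 were the 2 members past an adjusted p of 0.05, at 0.031 and 0.0394, beside 1.02% of all tested probes. That fit takes the gap between heifers 1 and 2 and heifers 3 and 4 out of the residual, and in it the dye orientation and the pair of animals cannot be told apart. LAMTOR3, which forms a dimer with LAMTOR2, was at -0.19 ± 0.43, and LAMTOR5 at 0.11 ± 0.17.

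Probes of 1 Ragulator gene differed. Beside the brightest probe of LAMTOR2, another was at 0.08 ± 0.28, with 0.38, 0.25, -0.21 and -0.10 in heifers 1 to 4, and the last at -0.03 ± 0.24. All 3 probes were higher at 14 months in heifers 1 and 2, by amounts that differ. For LAMTOR1 the other probes were at 0.47 ± 0.80 and -0.10 ± 0.43, so that 1 followed the brightest probe, with 0.97, 1.32, -0.08 and -0.33, and 1 did not. The direction for both genes therefore depends on the probe. With the mean over its probes LAMTOR2 was at 0.21, with an unadjusted p of 0.209 in limma, which ends its call.

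**Figure D2:**
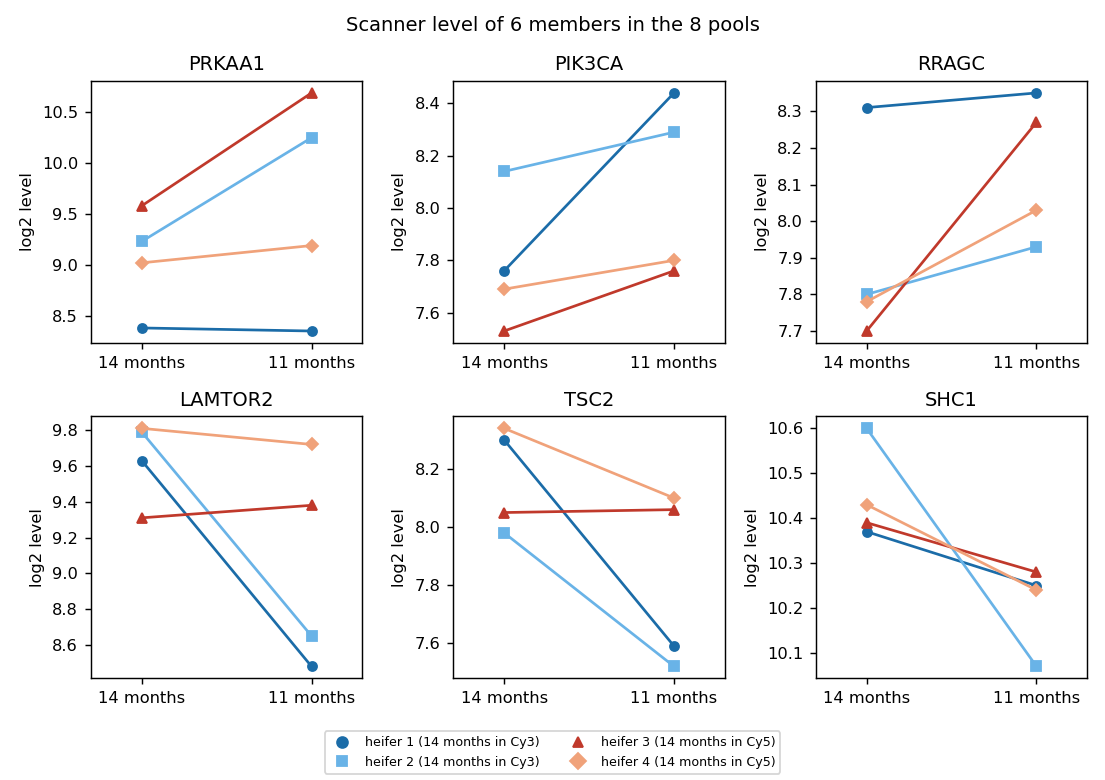
Log2 scanner level (vertical axis, its own range in each panel) of PRKAA1, PIK3CA, RRAGC, LAMTOR2, TSC2 and SHC1 in the 14-month pools (left) and 11-month pools (right), with 1 line per heifer. Lines of PIK3CA and RRAGC run the same way in all 4 heifers but differ in steepness, LAMTOR2 is moved by heifers 1 and 2, PRKAA1 by heifers 2 and 3, and SHC1 alone has no overlap between the ages.

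The S6 kinases phosphorylate ribosomal protein S6 downstream of mTORC1 (RPS6KB1 and RPS6KB2) or of ERK (RPS6KA1 and RPS6KA3). All 4 had a mean ratio above 0, as had 6227 of 13519 tested genes, and none passed the test. The paralogues RPS6KA2 and RPS6KA6, outside the members, were at 0.10 ± 0.40 and -0.04 ± 0.32. RPS6KA3 had the largest of the 4, with -0.03 and -0.02 in heifers 1 and 2 and 0.58 and 1.07 in heifers 3 and 4, a mean of 0.40 ± 0.53 (SD, n = 4) and an unadjusted p of 0.0666 in limma. Its probe was above the negative controls on 3 of 4 arrays at 11 months, which leaves its ratio uncertain. RPS6KB1, the main S6 kinase of mTORC1, was at 0.12 ± 0.13, with a 95% interval of -0.16 to 0.40. RPS6KB2 was at 0.24 ± 0.57 from a probe above the negative controls on 2 arrays at either age, and RPS6KA1 at 0.10 ± 0.19.

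The PI3K enzymes among the members turn the membrane lipid PIP2 into the signal lipid PIP3. The 4 subunits among the members had a mean ratio below 0, as had 7292 of 13519 tested genes. Of further genes of the wider PI3K family on the array, PIK3CD, PIK3C3 and PIK3C2A were at -0.14, -0.16 and -0.20, PIK3R3 at 0.00 and PIK3R4 at 0.11. The probes of PIK3CD, PIK3C2A and PIK3R3 were not above the negative controls in every pool. PIK3CA, the p110-alpha catalytic subunit, had log2 levels of 7.76, 8.14, 7.53 and 7.69 at 14 months, against 8.44, 8.29, 7.76 and 7.80 at 11 months. Each heifer was lower at 14 months, and heifer 1 had the widest gap. The ratios of -0.79, -0.24, -0.24 and -0.18 gave -0.36 ± 0.28 (SD, n = 4), or 1.29-fold lower at 14 months. In limma the unadjusted p was 0.0312 and the adjusted p 0.486. From the scanner files the unadjusted p of PIK3CA was 0.0459 to 0.109 in limma, under 0.05 in 2 of 4 ways. PIK3CB, the p110-beta subunit, was at -0.26 ± 0.31, with 0.14 in heifer 1 and -0.15, -0.48 and -0.53 in heifers 2 to 4. The regulatory subunits PIK3R1 and PIK3R2 were at -0.12 ± 0.30 and -0.15 ± 0.27. A second probe of PIK3R2 was at 0.17 ± 0.27.

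PIP3 recruits PDK1 (PDPK1) and AKT, and PDK1 phosphorylates AKT in its activation loop. PDPK1 had a deposited ratio below 0 in all 4 heifers, at -0.23, -0.03, -0.46 and -0.17, a mean of -0.22 ± 0.18 with an unadjusted p of 0.117 in limma. In heifer 2 the sign is uncertain, as the log2 scanner levels were 7.33 at 14 months and 7.31 at 11 months. The AKT paralogues differed in sign. AKT1 was at -0.11, 0.22, 0.09 and 1.15, so that heifer 4 gave most of its mean of 0.34 ± 0.56. AKT2, the paralogue best known for insulin-stimulated glucose uptake, was at -0.19, 0.05, -0.56 and -0.19, a mean of -0.22 ± 0.25. The difference between the paralogues was not tested.

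Receptor substrates and adaptors link activated growth factor receptors to PI3K and RAS. SHC1, an adaptor that recruits GRB2, had log2 levels of 10.37, 10.60, 10.39 and 10.43 at 14 months, against 10.25, 10.07, 10.28 and 10.24 at 11 months. It was the 1 member of 40 whose levels at the 2 ages did not overlap, or 2.5%, against 2.66% of all tested genes. Heifer 2 had the widest gap between its pools. Its ratios of 0.05, 0.49, 0.21 and 0.20 gave 0.24 ± 0.19 (SD, n = 4), with an unadjusted p of 0.0969 and an adjusted p of 0.644 in limma. GAB1, a docking protein for PI3K, was at -0.33 ± 0.76, with -1.11 and -0.85 in heifers 1 and 2 and 0.37 and 0.28 in heifers 3 and 4. A second GAB1 probe had the same pattern, at -0.41, -0.60, 0.07 and 0.02. SOS1, the exchange factor for RAS, was at 0.25 ± 0.25 and GRB2 at -0.08 ± 0.15. Further tested probes were at 0.22 ± 0.39 and -0.04 ± 0.30 for SOS1 and at 0.14 ± 0.35 for GRB2, so that the sign of both depends on the probe. The IRS1 probe was not above the negative controls in any pool, and IRS2 and GRB10 had no probe under their names.

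AMPK is a trimer of a catalytic alpha, a beta and a gamma subunit. PRKAA1, the alpha-1 subunit, had the lowest mean ratio and the smallest p of the members. Its log2 levels were 8.38, 9.23, 9.58 and 9.02 at 14 months, against 8.35, 10.25, 10.69 and 9.19 at 11 months. The 11-month pools of heifers 2 and 3 were the highest of the 8, while heifers 1 and 4 had nearly equal levels at the 2 ages. The ratios of -0.03, -1.12, -1.05 and -0.17 gave -0.60 ± 0.57 (SD, n = 4), or 1.51-fold lower at 14 months. In limma the unadjusted p was 0.0165 and the adjusted p 0.426. The 3 other probes of PRKAA1 were at -0.13 ± 0.34, 0.11 ± 0.29 and -0.05 ± 0.18, and the first of these was at -0.64 in heifer 2, so that the low value in heifer 3 was seen with the brightest probe only. With the mean over its probes PRKAA1 was at -0.17, with an unadjusted p of 0.211 in limma, which ends its call. PRKAA2, which encodes the alpha-2 subunit, was not above the negative controls in any pool.

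The beta and gamma subunits gave no call. PRKAB1 (beta-1) was at 0.14 ± 0.23, PRKAB2 (beta-2) at 0.04 ± 0.32 and PRKAG1 (gamma-1) at 0.02 ± 0.28. Their 95% intervals ran from -0.17 to 0.44, from -0.30 to 0.37 and from -0.30 to 0.34, and thus stayed within 1.5-fold. Of the gamma subunits outside the members, PRKAG2 was at -0.14 ± 0.06 and PRKAG3, from a dim probe, at -0.15 ± 0.36. STK11, the kinase LKB1 that activates AMPK, was at 0.48 in heifer 1 and at -0.34, -0.58 and -0.30 in heifers 2 to 4, a mean of -0.19 ± 0.46, from a probe above the negative controls on 3 arrays at 14 months and 4 at 11 months.

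**Figure D3:**
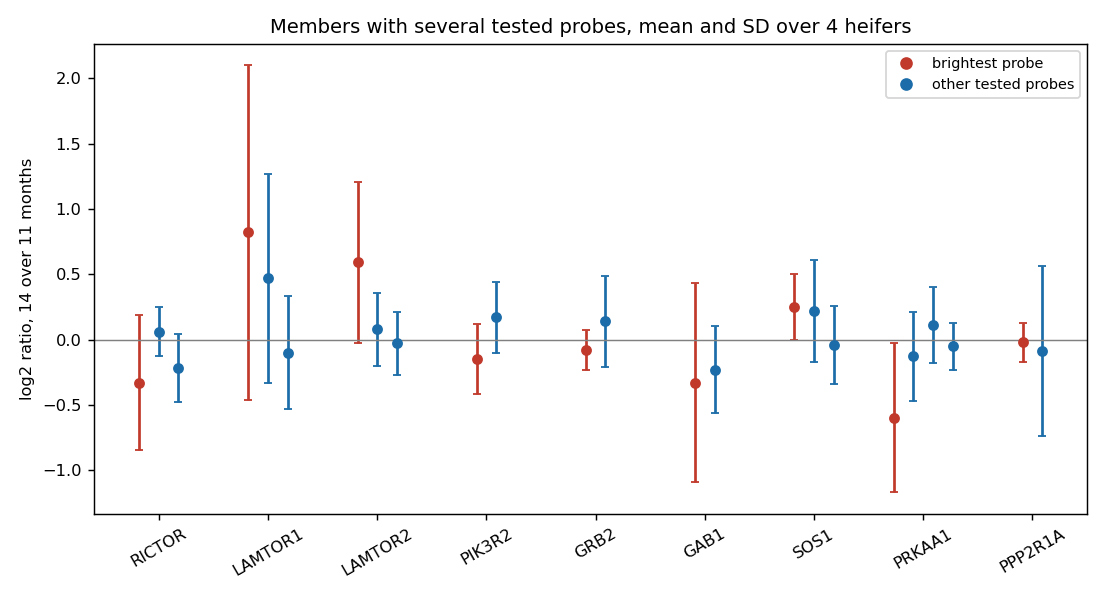
Mean log2 ratio of 14 over 11 months with the SD over 4 heifers (vertical axis) for every tested probe of the 9 members that had several, the brightest probe in red and the others in blue. The brightest probes of LAMTOR1, LAMTOR2 and PRKAA1 lie farther from 0 than the other probes of the same gene.

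Of the proteins that AKT and mTORC1 restrain, GSK3A and ULK1 had the largest means. GSK3A, a kinase that AKT phosphorylates and inhibits, was at 0.94 and 0.54 in heifers 1 and 2 and at -0.17 and 0.01 in heifers 3 and 4, a mean of 0.33 ± 0.51. ULK1, the kinase that starts autophagy and that mTORC1 blocks, was at 0.03, 0.00, 0.33 and 0.76, a mean of 0.28 ± 0.35. Its probe was dim, above the negative controls on 3 arrays at 14 months and on 1 at 11 months, so that the ratio is uncertain. The transcription factors FOXO1 and FOXO3, which AKT keeps out of the nucleus, were at 0.02 ± 0.20 and -0.04 ± 0.09. FOXO3 had the smallest spread of the members, from a probe above the negative controls on 2 arrays at 14 months and 4 at 11 months. GSK3B had no probe under its name. PPP2CA and PPP2R1A, which encode the catalytic and scaffold subunits of the phosphatase PP2A, which removes phosphate from AKT, were at 0.10 ± 0.35 and -0.02 ± 0.15. Another tested probe of PPP2R1A was at -0.09 ± 0.65, with 0.48 and 0.42 in heifers 1 and 2 and -0.40 and -0.84 in heifers 3 and 4.

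The members that activate the pathway were then set against those that inhibit it. The activating class held 23 tested genes, from the adaptors and PI3K to the Rag GTPases, mTOR and the S6 kinases. The inhibiting class held 11, namely TSC1, TSC2, AKT1S1, DEPTOR, STK11, the 4 tested AMPK subunit genes among the members, PRKAA1, PRKAB1, PRKAB2 and PRKAG1, and the PP2A pair. The median ratio was 0.07 in the activating and 0.04 in the inhibiting class. Heifer by heifer, the activating median was -0.01, 0.21, -0.04 and -0.05, against -0.10, -0.01, 0.02 and -0.17 for the inhibiting members. The difference of these medians was 0.08, 0.23, -0.07 and 0.12, a mean of 0.09 ± 0.12 (SD, n = 4). It was thus above 0 in 3 of 4 heifers, with a mean smaller than its SD, and no test was made since the members were chosen with results known. By unadjusted p under 0.05, 1 activating member was higher (LAMTOR2) and 2 lower (PIK3CA, RRAGC), while 1 inhibiting member was higher (TSC2) and 1 lower (PRKAA1). Calls thus went both ways within each class. The 4 restrained outputs had a median of 0.15.

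**Figure D4:**
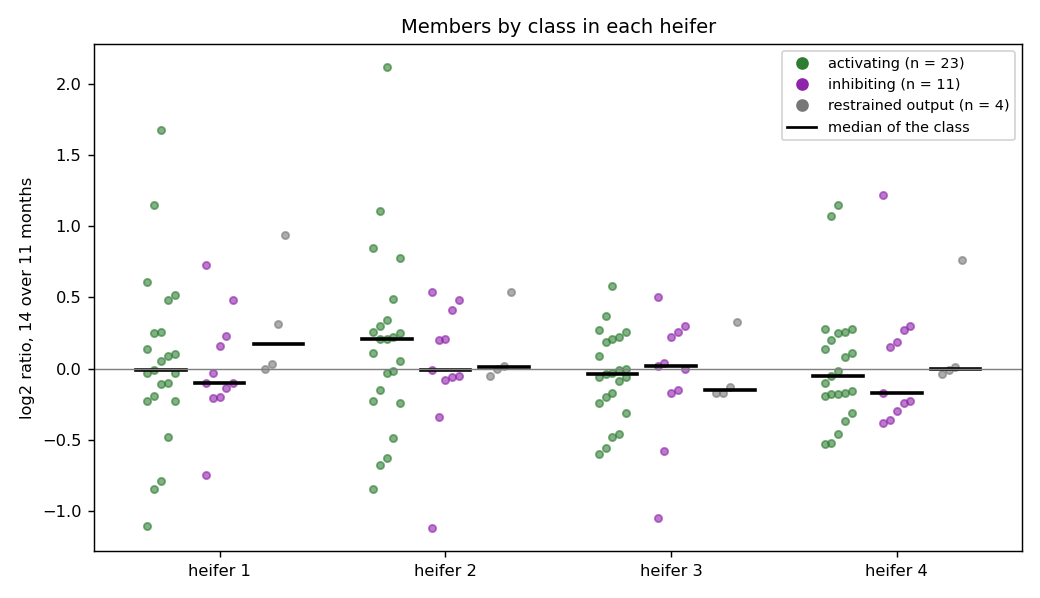
Log2 ratio of 14 over 11 months (vertical axis) of the tested activating (23), inhibiting (11) and restrained output (4) genes in each heifer, with 1 point per gene and a black line for the class median; the pair of PI3K regulatory subunits is not drawn. The activating and inhibiting points overlap in every heifer, and the widest gap of the activating and inhibiting medians is 0.23, in heifer 2.

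The arrays of like dye orientation also agreed best in these genes. Across the 40 members, which are not independent replicates and share 4 hybridizations, the ratios correlated at r = 0.76 between heifers 1 and 2 and at r = 0.51 between heifers 3 and 4. Pairs of opposite orientation gave -0.29 to 0.13, and over all tested probes the like pairs gave 0.56 and 0.31. In 9 of the 40, or 22.5%, heifers 1 and 2 had the opposite sign from heifers 3 and 4, against 23.8% of all tested genes. MLST8, LAMTOR5, RPS6KB2 and FOXO3 were higher at 14 months in heifers 1 and 2, and AKT1S1, TSC1, LAMTOR3, RPS6KA3 and GAB1 in heifers 3 and 4. Signs were read from unrounded values with no tolerance, so that ULK1 in heifer 2, FOXO3 in heifer 1 and LAMTOR1 in heifer 3, printed as 0.00, count as above 0, and TSC2 in heifer 3 as below 0. LAMTOR1 is for that reason not among the 9. A single sign in all 4 heifers was found in SHC1 and ULK1, higher at 14 months (2 of 40, or 5%, against 7% of all tested genes), and in RRAGC, PIK3CA, PDPK1 and PRKAA1, lower (4 of 40, or 10%, against 9.35%). For PDPK1 this rests on a deposited ratio of -0.03 in heifer 2, and for PRKAA1 on -0.03 in heifer 1. There the scanner levels were slightly higher at 14 months, at 7.33 against 7.31 for PDPK1 and 8.38 against 8.35 for PRKAA1. PRKAA1, by its brightest probe, had nearly the same mean in both orientations, -0.58 and -0.61. Each mean was carried by 1 heifer of its pair, with -1.12 in heifer 2 and -1.05 in heifer 3. For TSC2 these means were 0.57 and 0.13, for PIK3CA -0.51 and -0.21, for RRAGC -0.17 and -0.48, and for LAMTOR2 1.13 and 0.05. Which of dye and animal made these gaps cannot be told apart.

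**Figure D5:**
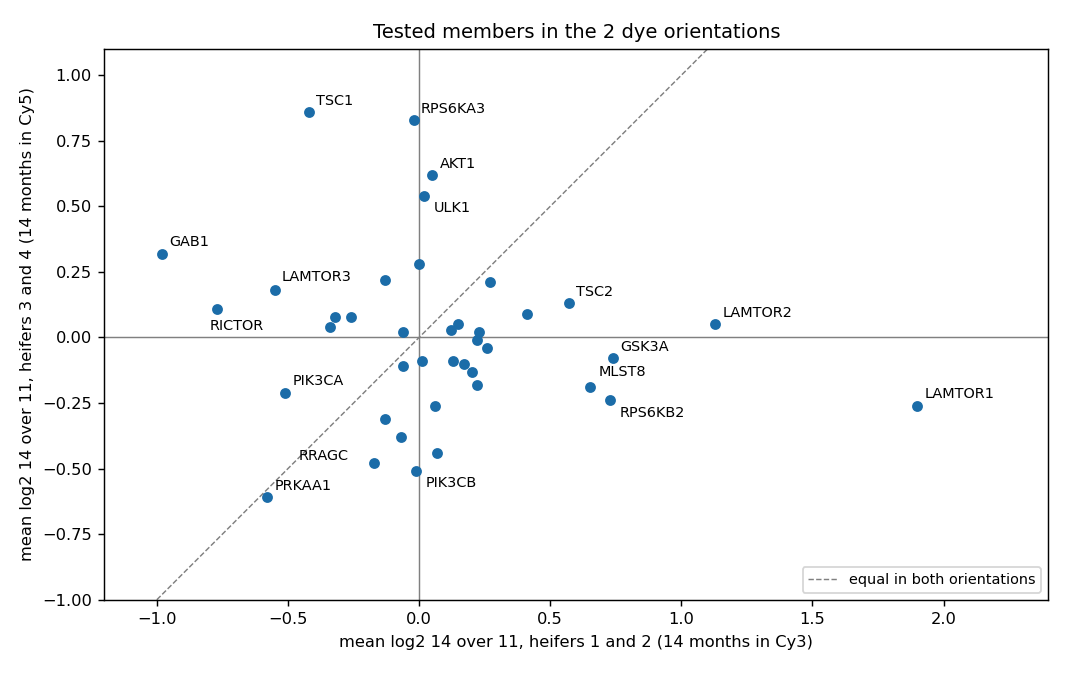
Mean log2 ratio of 14 over 11 months in heifers 1 and 2 (horizontal axis) against that in heifers 3 and 4 (vertical axis) for the 40 tested members, with the dashed line where both are equal. PRKAA1 lies on the line at -0.58 and -0.61, each mean carried by 1 heifer of its pair. LAMTOR1, LAMTOR2, GAB1, TSC1 and RPS6KA3 lie far from the line.

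Further genes of the same pathways were read from a list of 60, of which 53 had a probe and 50 were tested. Of these 50, 2 were higher and 3 lower at 14 months at an unadjusted p under 0.05, and their median ratio was -0.06. Over all tested genes 4.21% were higher and 5.13% lower by the same threshold, so that these counts are near the background, and the genes are named as a description. The lower ones were INPP4B and INPPL1, phosphatases that break down the lipids made by PI3K, and TFEB, the transcription factor of lysosomal genes that mTORC1 holds in the cytoplasm. INPP4B was at -0.17, -1.28, -1.08 and -0.18, a mean of -0.67 ± 0.59, and INPPL1 at 0.03, -0.88, -1.33 and -0.34, a mean of -0.63 ± 0.60. In both, as in the brightest PRKAA1 probe, heifers 2 and 3 carried most of the difference. TFEB was at -0.39 ± 0.38. The higher ones were RB1CC1, a scaffold of the ULK1 complex, at 0.34 ± 0.21, and the docking protein GAB2 at 0.35 ± 0.36. The GAB2 probe was dim, above the negative controls on 3 arrays at 14 months and 2 at 11 months. None passed in limma after adjustment, the lowest adjusted p being 0.383 for INPP4B. CASTOR1, an arginine sensor, had the highest mean of the list, 0.73 ± 1.93, with 2.17 and 2.51 in heifers 1 and 2 and -0.29 and -1.48 in heifers 3 and 4, and was singled out for its size.

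Over the series, 63.6% to 68.1% of all 43794 probes were above the negative controls in the 14-month pools and 65% to 71.6% in the 11-month pools. The 4 arrays limit the precision of every value. Of 10 blastocyst markers 9 were above the controls in all 8 pools, the exception being SOX17, beside 20671 of all 43794 probes. Some cumulus, granulosa and oocyte markers, named below, were too, so that this count does not settle the tissue. Among the 10 blastocyst markers, NANOG was lower at 14 months, at -1.12 ± 0.37, with an adjusted p of 0.328 in limma. Of 10 cumulus and granulosa markers 8 were tested, 5 were above the controls in all 8 pools (TNFAIP6, FSHR, STAR, CYP19A1 and INHBA), and the median ratio was 0.00, with a summed linear level of 1413 to 1617 at 14 months and 1481 to 1554 at 11 months; AMH and FOXL2 were not above the controls in any pool. VCAN alone of these was higher at an unadjusted p under 0.05, at 0.31 ± 0.14. Its probe was above the controls on 3 arrays at 14 months and 0 at 11 months, so that the ratio is uncertain. The 7 sperm markers summed to 689 to 761 at 14 months and 655 to 950 at 11 months. PRM1, TNP1, TNP2 and SPEM1 were above the controls in some pools, and PRM2, ODF1 and AKAP4 in none. The 8 oocyte markers summed to 1181 to 1316 at 14 months and 1159 to 1355 at 11 months, with FIGLA, OOEP and KIT above the controls in all 8 pools, BMP15, ZP2, ZP3 and ZP4 in some, and GDF9 in none. All these summed levels include the offset of 50 added to each probe and the signal of probes near the controls, and thus are not amounts of transcript. The part of such cells in the members' ratios was not tested.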

How the data were processed

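Messenger RNA of 8 embryo pools was measured on 4 two-colour arrays. The pools' RNA was amplified linearly and labelled with Cy3 or Cy5, per the labels' protocols, and amplification can change the relation between transcripts. Groups and dyes came from the source names. The log2 ratios are those the authors deposited in the series matrix; how they were normalized and centred, and with what software, was not stated. Compared with ratios from the scanner files they ran 11 over 14 months on all 4 arrays (r of 0.914 to 0.989 with loess ratios, slopes of 1.07 to 1.39, medians of 0.001 to 0.0234), from which base 2 was taken, and their sign was turned. The intensity values, per the file headers, are spot medians and local backgrounds on a linear scale.

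Scanner levels were computed by normexp (offset 50), loess within arrays and quantile scaling of mean signals between arrays, so that a difference of levels comes near the deposited ratio without being equal to it. Probes were tested whose mean signal exceeded that of 153 negative control spots by 2 SD, which left out 7347 of 43794. A pool counted as above the negative controls where its channel exceeded their mean in that channel by 2 SD. No spot reached 65535. Ratios were fitted with lmFit and eBayes in limma 3.58.1 (R 4.3.3), two-sided, with Benjamini-Hochberg adjustment over 36447 probes. The fit had 3 residual and 5.98 prior degrees of freedom. It was checked on simulated ratios drawn independently for each array, a check that does not cover the correlation between arrays of like dye orientation. Figures used matplotlib 3.10.9.

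Symbols came from GEO's platform annotation: 21790 probes have 1, 0 have several and 22004 have none. Of these, 20025 were current in ARS-UCD2.0, 1524 were updated through a synonym and 241 kept. No coordinates or sequences are printed. The members, classes and lists were chosen with earlier results of these data known. All members are named, and of the other pathway genes those at an unadjusted p under 0.05; CASTOR1 was added after its values were seen.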

Additional observations from a re-analysis of the deposited data

Results flagged for a closer look

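A heifer stood far from the other 3 in 2 of the 42 results screened, which were the ratios of the 40 tested members and 2 summaries over them. Chance alone flags about 1 in 20 such groups of 4. PIK3CA was at -0.79 in heifer 1, against -0.24 to -0.18 in the other 3, and its gap took a share of 0.894 of the whole range. PRKAB1 was at -0.21 in heifer 1, against 0.21 to 0.30 in the others, with a share of 0.834. Both shares were past Dixon's critical value for 4 values. In PIK3CA the sign did not depend on heifer 1, and the mean without it was -0.22.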

How the results depend on the processing

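No member passed an adjusted p of 0.05 under the 5 alternatives of background, scaling and gene summary or the 2 filters. The same held without the pairing of ages within an array, and without any 1 heifer. With a dye term LAMTOR1 and LAMTOR2 passed, 2 of 40 members, beside 1.02% of all tested probes. In heifers 1 and 2 alone 7 of 40 passed (RICTOR, MLST8, LAMTOR1, LAMTOR2, RPS6KB2, GAB1 and GSK3A), beside 7.2% of all tested probes. In heifers 3 and 4 alone 0 of 40 passed, beside 0.00274% of all tested probes. All 5 members with an unadjusted p under 0.05 kept their sign throughout, while 4 others (FOXO1, GRB2, PIK3R2 and PPP2R1A) changed sign under at least 1 of the 9 settings on all 4 arrays. The count of 5 members was 3 without background correction (2 higher, 1 lower), 2 with median centring, 3 with the mean over a gene's probes (without PRKAA1 and LAMTOR2), 14 with the dye term and 1 with no replicate block, where the ages of a heifer are not paired. It was 13 in heifers 1 and 2 alone and 8 in heifers 3 and 4 alone, fits in which age and dye cannot be told apart, and 1 to 6 without 1 heifer. The 1 was without heifer 2, and was RPS6KA3. The 5 other pathway genes were 10 with the dye term, 1 with no replicate block, 17 and 9 in the orientations alone and 0 to 4 without 1 heifer, with 0 without heifer 2 and 2 without heifer 3. Probes past the adjusted threshold, 0 in the reported fit and without any heifer (0 to 0), were 373 with the dye term, 2624 in heifers 1 and 2 and 1 in heifers 3 and 4. Of the 36447 tested probes, 3352 had an unadjusted p under 0.05 in the reported fit, beside 5 of the 40 members. The probe count was 2050 with median centring, 6025 with the dye term, and 8520 and 5477 in the orientations alone. It was 1637 to 3851 without 1 heifer, the lowest without heifer 2. The members' median was 0.00 to 0.04 without 1 heifer and 0.05 at most elsewhere. The activating minus inhibiting difference of gene medians, 0.04, was -0.03 to 0.08 without 1 heifer, and -0.01 with the stricter filter or without the RSK and PP2A genes, so that its sign is not settled. Dim probes, not above the controls in every pool, limit DEPTOR, TSC1, RPS6KA3, RPS6KB2, PIK3R1, PIK3R2, STK11, FOXO3 and ULK1.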
